A study of Homo sapiens with 9 samples.

Results

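Transcript levels in the human melanoma cell line WM3248 were compared between cells that had received ARN22089 at 6 µM and cells that had received the vehicle, DMSO (0 µM), both harvested after 24 h. By the sample titles 6 of the 9 libraries of the series belong to this comparison, 3 at each dose, and the 3 libraries at 4 µM entered the estimate of the spread and a test between the doses. At 6 µM the genes of the replicative helicase (12 of 12), of the spindle and cytokinesis (27 of 28) and of mitotic chromosome structure (20 of 20) were lower. Their median log2 differences were -1.10, -1.02 and -0.97. As single genes 1, 4 and 3 of them passed the test, against 0.182% of all genes that passed lower. Measured over the exonic bases that the libraries share, 11 of the 12 helicase genes were lower. NFKBIA, which encodes an inhibitor of NF-kB, rose from 16.2 ± 4.65 to 90.7 ± 13.2 FPKM (SD, n = 3), and the polyamine enzyme gene SAT1 rose from 64.9 ± 3.04 to 272 ± 51.9 FPKM (SD, n = 3). Of 10 mevalonate enzymes all were higher, of which MVD and HMGCS1 passed, and of 22 targets of YAP and TEAD 19 were lower, of which CCN1 passed. When the replicate number was added to the fit to pair the libraries, 4 genes passed in all, SAT1 but not NFKBIA, MVD, HMGCS1 or CCN1. Measured over the shared exonic bases, each of these named genes passed in the paired fit. CDC42, RHOJ and RHOQ, the genes of the GTPases that ARN22089 targets, did not pass.

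CDC42, RHOJ and RHOQ are small GTPases that switch on effectors such as the PAK kinases and so organise actin, polarity and migration, and ARN22089 was designed to keep them from binding those effectors. NF-kB is held in the cytoplasm by inhibitor proteins, and several of the inhibitor genes are themselves targets of NF-kB, so that their transcripts follow its activity. Sterol enzymes are under the control of SREBP factors, which are cut free when membrane cholesterol is low, and genes of DNA replication and of mitosis are transcribed in turn as cells pass through the division cycle, through E2F sites and through CHR and CCAAT boxes.

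WM3248 is a single line, and all groups had the same low-serum medium with insulin and were seeded 1 day before treatment. Each library was assembled on its own into transcripts with an FPKM value (fragments per kilobase, relative to all mapped fragments), between 26506 and 30798 transcripts a library, and between 12365 and 13239 genes were named in each. Depth in reads is unknown, and, as the ratio of deposited coverage to FPKM, it ran relative to the median library from 0.95 to 1.30 at 0 µM and from 1.00 to 1.34 at 6 µM. Of the libraries compared, 2 at 0 µM stood apart. Replicate 3 had 38.8% of its FPKM in 2 transcripts. Replicate 1 correlated less with its own group (r across genes of 0.885 and 0.888, against 0.909 between replicates 2 and 3) and least with the 6 µM libraries (0.854 to 0.869). Without replicate 1 at 0 µM 63 genes passed in place of 56 (26 higher, 37 lower) and, by the consensus exon value, 319 in place of 519, and the median difference was -1.06 for helicase, -0.97 for spindle, 0.76 for mevalonate and 0.61 for melanin genes, in place of -1.10, -1.02, 0.93 and 0.79. All 9 melanocyte markers were present, with summed levels of 408 to 1389 FPKM at 0 µM and 1386 to 2054 FPKM at 6 µM. The 5 blood markers were listed at 0 in all 6 libraries, as were 4 of 5 keratinocyte markers, EPCAM, CDH1 and KRT19 of the epithelial and CDH5 and VWF of the endothelial markers, whereas KRT18 was at 22.4 to 144.8 FPKM at 0 µM and 47.8 to 56.1 at 6 µM, KRT14 at a mean of 2.03 and 0.309 FPKM, and the endothelial markers summed to 3.73 to 5.23 and 1.65 to 3.08 FPKM. The part of these markers in the results was not tested. The fibroblast markers summed to 17.8 to 65.9 FPKM at 0 µM and 33.0 to 56.9 at 6 µM. Whether libraries of a dose are separate cultures is not stated, and p-values measure only how these libraries spread, which may be technical.

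A gene's level is the sum of the FPKM of its transcripts, here the summed value, and a difference is the log2 difference of FPKM + 1 between 6 and 0 µM with its standard error, from a limma fit of all 9 libraries with Benjamini-Hochberg adjustment over all genes tested. Because a library can list a gene at 0 under its own name, each gene was also measured over the exonic bases that the libraries share, here the consensus exon value. It takes in every transcript assembled over those bases, whatever its name or strand, and so can hold signal of other genes. POFUT4, listed at 0 in the vehicle libraries, was at 17.7, 15.6 and 10.5 FPKM there by this value. A gene that a library missed in assembly altogether stays at 0 with both values. Levels of 3 libraries stand in the order of replicates 1 to 3, and groups overlap where a library of one dose lies within or beyond those of the other. Some of the genes named below lie outside the rule given under the processing and were chosen after their values were seen: ABCA1, ACTB, ATF3, CXCL1, CXCL8, DCT, DHRS13, DUSP6, E2F2, FASN, FDFT1, FOS, HSPA5, IER3, KIF23, MCM7, NFKBIE, PCNA, RELB, SMC3, SMOX, SPTAN1, TMEM198B, TNFRSF12A, TRIB3, TUBB, TUBB6 and TYR. A gene is said to have risen or fallen where its adjusted p was below 0.05 with the summed value, or, where this is stated, by the consensus exon value.

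Of 12609 genes tested, 56 (0.444%) passed with the summed value, 33 higher (0.262%) and 23 lower (0.182%). An unadjusted p below 0.05 was found for 2215 genes (17.6%), 1021 higher (8.1%) and 1194 lower (9.47%). With the consensus exon value 519 of 12627 genes passed (4.11%), 206 higher (1.63%) and 313 lower (2.48%), and with values rescaled to a fixed sum (TPM), which moved the median difference of all genes to 0.235, 15 were higher and 1 lower. Of the 56 genes, 40 passed with both values in the same direction, 25 higher and 15 lower, whereas 6 had the opposite sign by the consensus exon value, DHRS13, ARPC4-TTLL3, RASSF8, SPTAN1, ZSWIM8 and POFUT4. Of all genes 46.6% had differences above 0 and 53.2% below 0, with a median log2 difference of -0.03, quartiles of -0.32 and 0.27, and 586 genes at or above 1 against 582 at or below -1.

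The count of 56 depended on the libraries and on the fit. Adding the replicate number as a block left 4 genes (0.0317%) with the summed value, 3 higher (0.0238%) and 1 lower (0.00793%), SPHK2, SAT1, DHRS13 and POFUT4, and raised the count by the consensus exon value to 663 (5.25%), with 280 higher (2.22%) and 383 lower (3.03%). Of the 40 genes that passed with both values, 39 also passed by the consensus exon value and the block. When 1 library was left out, the summed count was 31 for replicate 2 and 34 for replicate 3 at 0 µM, 23, 17 and 30 for replicates 1, 2 and 3 at 4 µM, and 15 for each of replicates 1 and 2 at 6 µM. The consensus count was then 319, 66 and 94 for replicates 1, 2 and 3 at 0 µM, 111 and 66 for replicates 1 and 2 at 4 µM, and 11 and 18 for replicates 1 and 2 at 6 µM. The calls by the consensus exon value given below share this dependence. Counts within the gene lists below stand beside the shares of all genes given here and above. Some genes, such as AXL, CENPE, CCND1 and ME1, belong to more than 1 list, so that list counts are not independent.

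**Figure D1:**
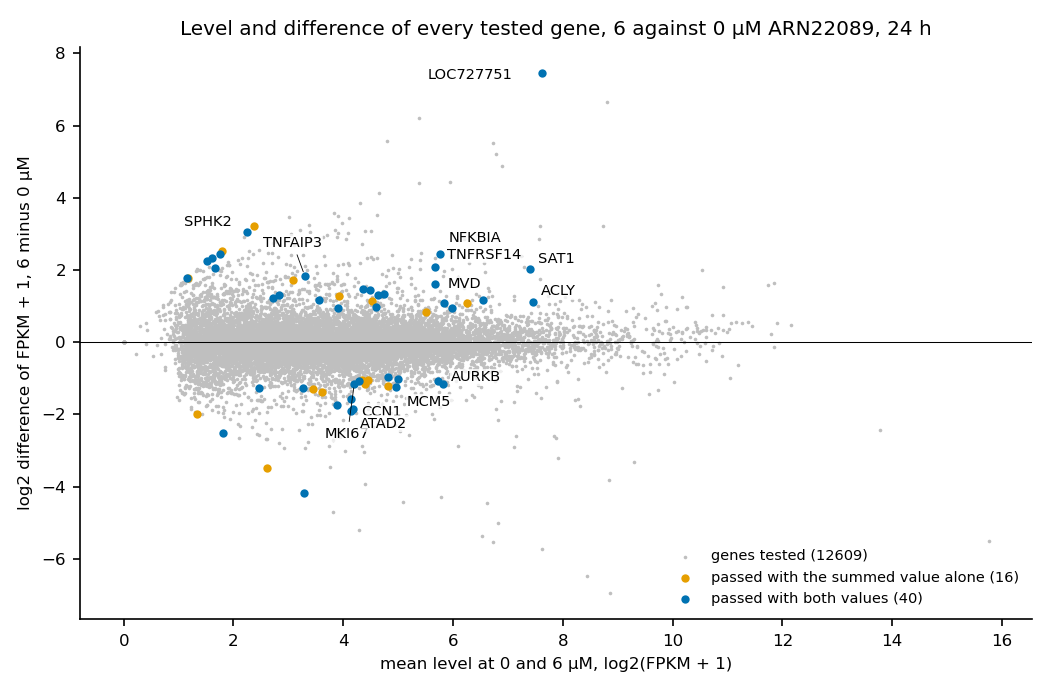
Each point is 1 of 12609 tested genes, with the mean level over the 0 and 6 µM libraries, as log2(FPKM + 1), on the x axis and the log2 difference between 6 and 0 µM on the y axis, where blue points passed with both values and orange points with the summed value alone. The 40 blue points lie on both sides of 0, and the bulk of the genes lies within about 1 of it.

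Among the 30 genes named for their large change, the 15 that rose and the 15 that fell did not overlap between 0 and 6 µM, which was also true of 1378 genes (10.9%) higher and 1743 genes (13.8%) lower among all tested. Their adjusted p ran from 0.00199 to 0.0497 (summed value) and from 0.000958 to 0.0393 (consensus exon value). With the block and the summed value it was 0.0388 for SPHK2 and SAT1 and 0.0552 to 0.0829 for the others. With the block and the consensus exon value it was 0.022 to 0.0433 for all 30. SPHK2, TNFRSF14, SAT1 and TNFAIP3 passed whichever of the 9 libraries was left out, and the other 26 lost the summed call in at least 1 of these cases.

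Transcripts of the targeted GTPases did not differ beyond the spread between libraries. CDC42 (chr1:22052709-22101360) was at 117, 111 and 122 FPKM at 0 µM and 114, 105 and 114 FPKM at 6 µM, a log2 difference of -0.08 ± 0.11 (adjusted p = 0.756). RHOJ (chr14:63204443-63293508), which is known in melanoma for migration, was at 10.1, 35.9 and 23 FPKM at 0 µM and 15.1, 16.2 and 15.6 FPKM at 6 µM (adjusted p = 0.654), and the vehicle libraries reached both below and above those at 6 µM. RHOQ (chr2:46542490-46584688) was at 22.9, 25.8 and 26.9 FPKM at 0 µM and 25.2, 29.7 and 26.2 FPKM at 6 µM (adjusted p = 0.806). The kinase gene PAK1 (chr11:77322017-77530009) was at 21.9, 17.7 and 16.2 FPKM at 0 µM and 11.5, 11.8 and 12.9 FPKM at 6 µM, so that the groups did not overlap, but its log2 difference of -0.57 ± 0.14 did not pass (adjusted p = 0.105, and 0.165 by the consensus exon value). Of 28 genes for CDC42 family GTPases and effectors 24 were tested, 12 higher and 12 lower with a median of -0.04. None passed with either value, and 1 was higher and 2 lower at an unadjusted p below 0.05 (8.1% and 9.47% of all genes). The median was -0.07 by the consensus exon value and above 0 with TPM or without replicate 1 or 2 at 0 µM.

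Genes of 2 NF-kB inhibitors rose. NFKBIA (chr14:35401513-35404749), the inhibitor that keeps NF-kB out of the nucleus, was at 21.4, 12.4 and 14.8 FPKM at 0 µM and 96.7, 99.8 and 75.5 FPKM at 6 µM, a log2 difference of 2.44 ± 0.36 (adjusted p = 0.048, and 0.0269 by the consensus exon value). Its lowest treated library lay more than 3 times above its highest vehicle library. TNFAIP3 (chr6:137866349-137883312), which encodes the ubiquitin-editing inhibitor A20, was at 2.92, 3.44 and 3.46 FPKM at 0 µM and 17.1, 13.7 and 12.4 FPKM at 6 µM, a difference of 1.84 ± 0.18 (adjusted p = 0.0101). In both genes replicate 3 was the lowest at 6 µM, and the groups did not overlap.

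The 250 bases before the start that the RefSeq promoter table gives, which for TNFAIP3 lies inside the gene's span, hold in both genes matches to the NF-kB motif, searched on both strands and given in capitals below as the letters stand on the gene's strand, 5′ to 3′. They are shown because these 2 genes carry the call in their list. The windows are chr14:35404750-35404999 on the minus strand for NFKBIA, with 1 match, and chr6:137867009-137867258 on the plus strand for TNFAIP3, with 2 matches (RefSeq, GRCh38.p14).
NFKBIA: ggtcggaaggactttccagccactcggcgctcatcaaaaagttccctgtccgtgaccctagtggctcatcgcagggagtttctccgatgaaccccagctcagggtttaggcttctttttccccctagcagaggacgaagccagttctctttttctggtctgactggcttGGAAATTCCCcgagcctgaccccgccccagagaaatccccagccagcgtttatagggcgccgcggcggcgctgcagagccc
TNFAIP3: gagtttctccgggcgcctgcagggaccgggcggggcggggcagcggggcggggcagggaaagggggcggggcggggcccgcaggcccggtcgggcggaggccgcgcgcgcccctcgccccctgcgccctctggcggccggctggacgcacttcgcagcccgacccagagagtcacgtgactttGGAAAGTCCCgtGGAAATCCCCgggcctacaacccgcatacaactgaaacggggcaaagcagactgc
Of 17 genes for NF-kB subunits and inhibitors 14 had a window in the RefSeq promoter table, and 5 of these (35.7%) held a match. Of all 27305 windows 9.57% held a match, and of the windows of tested genes 11.5%. Of 24 NF-kB induced genes 20 had a window, and 10 (50%) held a match. Among these were CXCL2, CXCL3, IL6 and LTB, whose levels were too low for a test. A match describes the letters in the window and not a bound site.

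All 17 genes for subunits and inhibitors were tested, 11 higher and 6 lower with a median log2 difference of 0.45. NFKBIA and TNFAIP3 rose with both values, none fell by either value, and 8 were higher and none lower at an unadjusted p below 0.05. NFKBIE, another inhibitor of the same family, was at 9.17, 10.3 and 6.54 FPKM at 0 µM and 21.1, 26.3 and 22.1 at 6 µM (adjusted p = 0.0583). RELB, a subunit of the non-canonical pathway, was at 5.06, 3.77 and 5.23 FPKM at 0 µM and 12.8, 21.1 and 15.3 FPKM at 6 µM (adjusted p = 0.139). The treated libraries were above the vehicle libraries in both. RELA, the main activating subunit, was at 37.5, 21.7 and 27 FPKM at 0 µM and 11.1, 34 and 28.7 FPKM at 6 µM (adjusted p = 0.694). NFKB1, its partner, was at 27.8, 43.8 and 35.8 FPKM at 0 µM and 28.9, 28.4 and 24.8 FPKM at 6 µM (adjusted p = 0.374), and both genes overlapped between the groups.

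Among NF-kB induced genes 16 of 24 were tested, 14 higher and 2 lower with a median of 0.51. None passed with the summed value. BIRC3 (chr11:102317484-102339403), which encodes an inhibitor of apoptosis that also acts in TNF receptor signalling, was at 1.51, 0.842 and 0.592 FPKM at 0 µM and 8.59, 8.96 and 3.22 FPKM at 6 µM (adjusted p = 0.0715) and rose by the consensus exon value (adjusted p = 0.0363). The chemokine gene CXCL8 was at 3.27, 3.21 and 3.09 FPKM in the vehicle libraries, a narrow range, and at 26.2, 7.14 and 5.86 FPKM at 6 µM, where replicate 1 was far above the others (adjusted p = 0.282). CXCL1 had the same replicate highest, 18.1, 8.2 and 5.48 FPKM against 4.13, 5.72 and 5.63, and overlapped with the vehicle libraries. For IER3, an early response gene, the 2 values differed. It was listed at 0, 0 and 111 FPKM at 0 µM and was at 191, 214 and 137 FPKM at 6 µM, a difference of 5.21 that was 0.92 by the consensus exon value (adjusted p = 0.0707). CXCL2, CXCL3, CCL2, IL6, IL1B, TNF, LTB and PLAU did not reach the mean level needed for a test.

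Receptors of the TNF family went in both directions. TNFRSF14 (chr1:2554234-2563829), a receptor for LIGHT and BTLA, rose from 13.3, 23.8 and 19.5 FPKM to 82, 79.5 and 80.6 FPKM, with the treated libraries close together and a log2 difference of 2.08 ± 0.20 (adjusted p = 0.00981). The neighbouring lncRNA LOC100996583 (chr1:2566535-2584534) was listed at 0 in the 3 vehicle libraries and was at 3.95, 7.66 and 2.69 FPKM at 6 µM (adjusted p = 0.0497). TNFRSF19 was at 38.6, 60.5 and 51 FPKM at 0 µM and 88.2, 84.8 and 69.2 FPKM at 6 µM and rose only by the consensus exon value (adjusted p = 0.047, and 0.0648 with the block). TNFRSF12A, the receptor for TWEAK, was at 102, 72.5 and 60.7 FPKM at 0 µM and 23.9, 39.8 and 45.4 FPKM at 6 µM, lower in every treated library but not past the threshold (adjusted p = 0.111). In all 10 of 18 receptors were tested, 4 higher and 6 lower, with a median of -0.32 that was -0.09 by the consensus exon value and above 0 with a filter at a mean of 5 FPKM. TNFRSF10B, a death receptor for TRAIL, was at 47.8, 43.2 and 44.8 FPKM at 0 µM and 74.8, 69.5 and 54.1 FPKM at 6 µM (adjusted p = 0.197).

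RIPK4 (chr21:41739373-41767052), a kinase of the RIP family that acts in epidermal differentiation and NF-kB signalling, rose from 8.26, 10.8 and 10.5 to 30.8, 31.3 and 24.9 FPKM, a difference of 1.47 ± 0.20 (adjusted p = 0.0397). It was the only one of 13 tested adaptors and RIP kinases to pass with either value. RIPK1, the kinase of the TNF receptor complex, was at 14.8, 15.9 and 15.4 FPKM at 0 µM and 14.5, 16 and 16.3 FPKM at 6 µM. In the BCL2 family 10 of 15 tested genes were higher, and none passed with the summed value. At an unadjusted p below 0.05, 3 were higher and 2 lower (8.1% and 9.47% of all genes). MCL1, an anti-apoptotic member, was at 84.5, 81.6 and 86 FPKM at 0 µM and 52.1, 51.4 and 57.6 FPKM at 6 µM, without overlap, and fell by the consensus exon value (adjusted p = 0.0296). BID, a pro-apoptotic member, was at 6.8, 7.99 and 10.5 FPKM at 0 µM and 10.2, 14 and 16.4 FPKM at 6 µM and rose with that value (adjusted p = 0.0469, and 0.055 with the block).

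**Figure D2:**
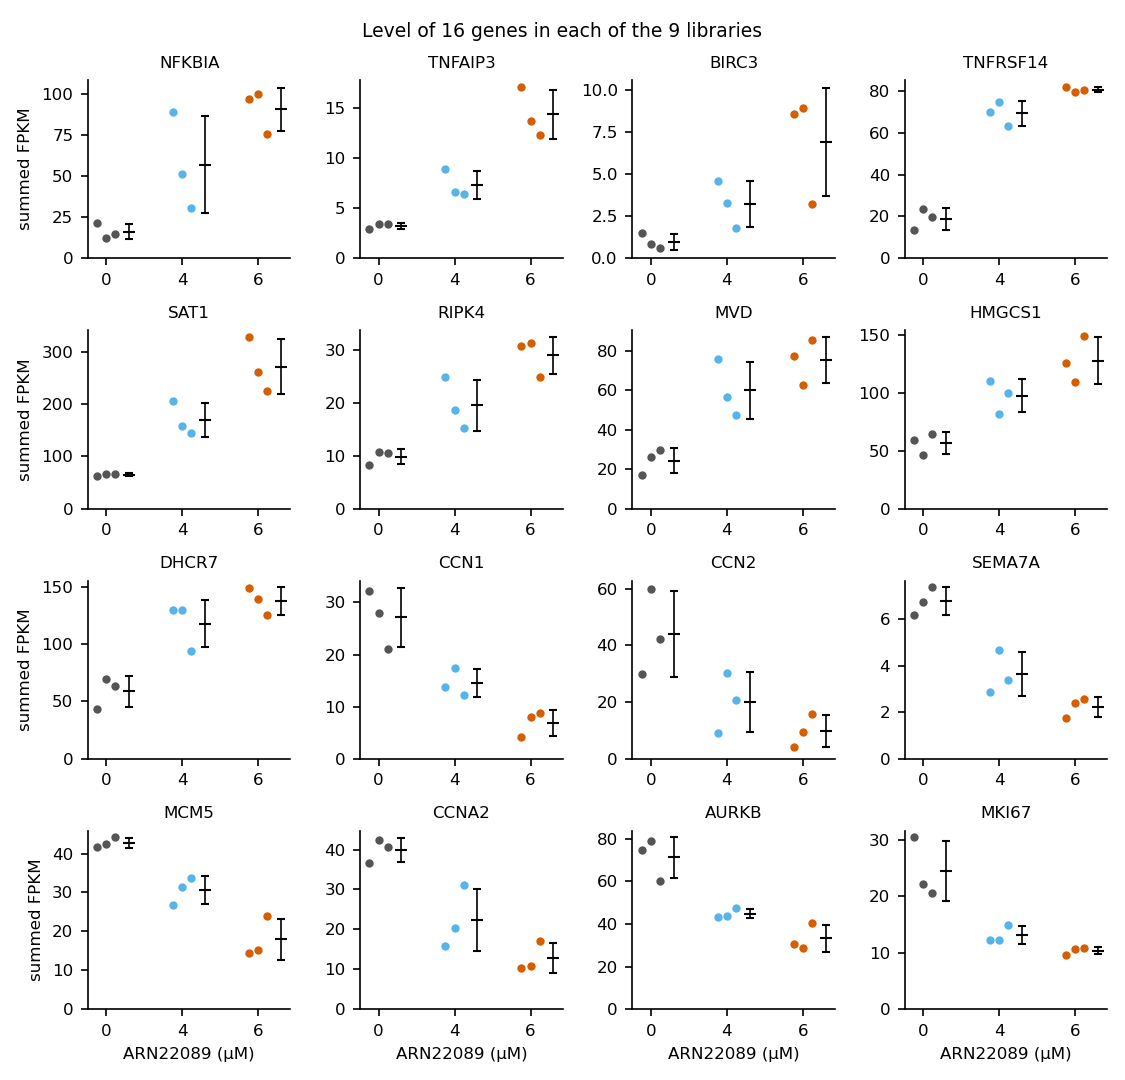
Each panel shows the summed FPKM of 1 gene in each of the 9 libraries by dose (grey 0 µM, light blue 4 µM, orange 6 µM), with the replicates in order from left to right and the mean ± SD of 3 libraries as a black mark. The 16 genes were picked from those that passed with the summed or the consensus exon value. That the 3 libraries at 6 µM lie on one side of the 3 at 0 µM in all panels was largely fixed by this choice. Of all tested genes 10.9% did so higher and 13.8% lower.

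SAT1 (chrX:23783173-23786210), the acetyltransferase that starts the breakdown of spermidine and spermine, rose from 61.4, 66.5 and 66.9 FPKM to 328, 262 and 225 FPKM, a difference of 2.03 ± 0.18 (adjusted p = 0.00861, and 0.0388 with the block). The vehicle libraries lay within 6 FPKM of each other, and the lowest treated library was above 200 FPKM. It was the only one of 12 polyamine genes to pass with either value. ODC1, the enzyme that opens polyamine synthesis, was at 36.2, 24.8 and 21.6 FPKM at 0 µM and 17.4, 22.7 and 15.7 FPKM at 6 µM (adjusted p = 0.257). SMOX, which oxidises spermine, was at 13.1, 9.21 and 9.7 FPKM at 0 µM and 12.4, 14.2 and 9.52 FPKM at 6 µM and overlapped. The list had 5 higher and 7 lower members and a median of -0.07, which was above 0 with TPM, by the consensus exon value and without replicate 1 at 0 µM.

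Enzymes of the mevalonate pathway, which makes the building blocks of cholesterol, were higher. All 10 were tested and all 10 had positive differences, with a median of 0.93. MVD (chr16:88651940-88663091), the decarboxylase of the pathway, rose from 17.1, 26.3 and 29.6 to 77.7, 62.6 and 85.7 FPKM, a difference of 1.62 ± 0.25 (adjusted p = 0.048). HMGCS1 (chr5:43287470-43313412), which makes HMG-CoA, rose from 59.3, 46.2 and 64.7 to 126, 109 and 149 FPKM (1.16 ± 0.19, adjusted p = 0.0497). The groups did not overlap in either gene. With the block both genes lost the call with the summed value and kept it by the consensus exon value. The adjusted p was then 0.075 and 0.035 for MVD, and 0.0552 and 0.0376 for HMGCS1. Those 2 of 10 passed higher with the summed value, against 0.262% of all genes. With the consensus exon value 5 rose, also with the block, the others being IDI1, FDPS and FDFT1. IDI1, the isomerase, was at 35.7, 40.7 and 63.9 FPKM at 0 µM and 108, 97.7 and 100.5 FPKM at 6 µM (adjusted p = 0.0583). FDFT1, which joins farnesyl groups into squalene, was at 147, 208 and 231 FPKM at 0 µM and 488, 388 and 418 FPKM at 6 µM (adjusted p = 0.0547). The vehicle library of replicate 1 was the lowest for MVD, IDI1 and FDFT1. Set against the numbered control the list medians were 1.15, 0.65 and 0.70 for replicates 1, 2 and 3.

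From squalene to cholesterol 12 enzymes were tested, 10 higher and 2 lower, with a median of 0.78. None passed with the summed value, though 9 had an unadjusted p below 0.05 upwards, and 6 rose by the consensus exon value, 4 with the block. DHCR7 (chr11:71427287-71449043), an enzyme of the final steps, was at 43.5, 69.6 and 63.2 FPKM at 0 µM and 149, 139 and 125 FPKM at 6 µM (adjusted p = 0.0547, and 0.0298 by the consensus exon value). SQLE, which oxidises squalene, was at 44.9, 74.8 and 85.2 FPKM at 0 µM and 134, 126 and 139 FPKM at 6 µM and rose by the consensus exon value (adjusted p = 0.0497). The treated libraries lay above the vehicle libraries in both genes.

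Fatty acid genes had a median of 0.67, with 10 of 13 tested members higher. ACLY (chr17:41866917-41930545), which makes cytosolic acetyl-CoA from citrate, rose from 93.1, 112 and 124 to 265, 241 and 213 FPKM, a difference of 1.12 ± 0.15 (adjusted p = 0.0428) that was 0.59 by the consensus exon value. With the block it did not pass with either value (adjusted p = 0.0667 and 0.061), and the calls of the list by the consensus exon value went from 4 to 3. SCD, the desaturase, was at 123, 214 and 196 FPKM at 0 µM and 401, 461 and 329 FPKM at 6 µM and rose by the consensus exon value (adjusted p = 0.0749 and 0.0388). The vehicle library of replicate 1 was the lowest in both. ME1, which supplies NADPH, was at 36.4, 47.5 and 45.7 FPKM at 0 µM and 70.6, 69 and 66.5 FPKM at 6 µM and rose by the consensus exon value (adjusted p = 0.0364). FASN, the fatty acid synthase, was at 88.8, 76.1 and 81.4 FPKM at 0 µM and 233, 129 and 214 FPKM at 6 µM, where replicate 2 was the lowest treated library, and did not pass (adjusted p = 0.0901 by the consensus exon value).

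The 13 tested control genes of the pathway had 9 higher and 4 lower members, with a median of 0.34. RNF145 (chr5:159157409-159210053), a sterol-responsive ubiquitin ligase, rose from 36.5, 33.2 and 37.3 to 86.6, 81.6 and 63.2 FPKM, a difference of 1.08 ± 0.17 (adjusted p = 0.0497, and 0.0598 with the block). INSIG1, which retains the SREBP complex in the endoplasmic reticulum, was at 14.1, 24.9 and 24.7 FPKM at 0 µM and 37.7, 47 and 59.5 FPKM at 6 µM and rose by the consensus exon value (adjusted p = 0.0365). SREBF2, the factor that controls sterol genes, was at 70, 61.3 and 53.9 FPKM at 0 µM and 50.7, 75.8 and 66.6 FPKM at 6 µM (adjusted p = 0.919). It overlapped between the groups. A sterol element, TCACNCCAC on either strand, was found in 0.875% of all windows, in 0 of 7 mevalonate and 0 of 10 later enzyme windows and in 1 of 12 windows of control genes.

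Of 10 tested LXR targets and apolipoproteins 7 were higher, with a median of 0.59 that was 0.27 by the consensus exon value and 0.03 for replicate 1 set against its numbered control. APOC1 (chr19:44914325-44919346) rose from 10.3, 11.8 and 10.9 to 36.4, 26.8 and 32 FPKM, a difference of 1.44 ± 0.23 (adjusted p = 0.0497). Its neighbour APOE (chr19:44905796-44909393), the main apolipoprotein of cholesterol transport between cells, was at 8.78, 14.7 and 11.6 FPKM at 0 µM and 24.1, 24.8 and 24.4 FPKM at 6 µM and rose by the consensus exon value (adjusted p = 0.0629 and 0.0341). ABCA1, a cholesterol exporter that is a textbook target of LXR, was at 2.61, 2.88 and 2.34 FPKM at 0 µM and 2.07, 2.67 and 2.59 FPKM at 6 µM and overlapped.

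Pigment cell genes had positive medians without passing as single genes with the summed value. Among 10 tested genes of melanin synthesis and the melanosome matrix 8 were higher, with a median of 0.79, and 5 were higher at an unadjusted p below 0.05. By the consensus exon value none passed, and 2 rose with the block. DCT, the dopachrome tautomerase, was at 55.3, 141 and 77.4 FPKM at 0 µM and 218, 365 and 289 FPKM at 6 µM (adjusted p = 0.0629). TYR, the tyrosinase, was at 5.18, 10.9 and 6.49 FPKM at 0 µM and 30.6, 22.2 and 12.2 FPKM at 6 µM (adjusted p = 0.119). In both genes all treated libraries lay above all vehicle libraries, and replicate 1 was the lowest vehicle library. Melanosome biogenesis and transport had 14 of 18 members higher and a median of 0.30. RAB32, a GTPase that carries melanin enzymes, was at 32.8, 36 and 31 FPKM at 0 µM and 76.5, 76.8 and 50.4 FPKM at 6 µM and rose by the consensus exon value (adjusted p = 0.0298). RAB38, its close relative, was at 39.8, 43.6 and 57.9 FPKM at 0 µM and 82.5, 75.4 and 74.7 FPKM at 6 µM and rose with it as well (adjusted p = 0.047). A melanocyte E-box, TCATGTG, stood in 5 of 9 windows of the melanin list (55.6%), those of TYR, TYRP1, SLC24A5, GPR143 and GPNMB, against 2.58% of all windows.

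Of 12 tested melanocyte transcription factors 9 were higher, with a median of 0.29. MITF, the master regulator of the lineage, was at 8.15, 14.7 and 17.7 FPKM at 0 µM and 16.5, 16.7 and 15.6 FPKM at 6 µM and overlapped (adjusted p = 0.553). SOX10, which acts upstream of it, was at 102, 131 and 141 FPKM at 0 µM and 151, 144 and 158 FPKM at 6 µM (adjusted p = 0.346). TFAP2A, a factor of pigment cell development, was at 13.2, 21.9 and 14.5 FPKM at 0 µM and 43.8, 55.1 and 34.2 FPKM at 6 µM and rose by the consensus exon value (adjusted p = 0.0399). In this gene the groups did not overlap. SNAI2, a neural crest factor, was at 8, 12.4 and 11.4 FPKM at 0 µM and 23.9, 18.5 and 19.9 FPKM at 6 µM and rose likewise (adjusted p = 0.0469, and 0.065 with the block). Genes of the dedifferentiated melanoma state had 11 of 14 tested members lower and a median of -0.33, which was -0.67 by the consensus exon value. AXL, a receptor kinase that marks this state, was at 29, 14.6 and 18 FPKM at 0 µM and 6.77, 6.86 and 10 FPKM at 6 µM and fell by the consensus exon value (adjusted p = 0.0345). FGFR1, a receptor for fibroblast growth factors, was at 17.6, 10.4 and 13.8 FPKM at 0 µM and 8.04, 6.93 and 6.81 FPKM at 6 µM and fell likewise (adjusted p = 0.0391).

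Targets of YAP and TAZ, regulators that respond to the actin cytoskeleton, were lower in 19 of 22 tested members, with a median of -0.51. CCN1 (chr1:85580761-85583950), a secreted matrix protein, fell from 32.3, 28 and 21.1 to 4.11, 7.93 and 8.76 FPKM, a difference of -1.86 ± 0.28 (adjusted p = 0.048). It alone passed with the summed value (0.182% of all genes passed lower), and 10 were lower and none higher at an unadjusted p below 0.05. CCN2 (chr6:131948176-131951372), of the same protein family, was at 29.8, 60 and 42.3 FPKM at 0 µM and 4.31, 9.35 and 15.8 FPKM at 6 µM (adjusted p = 0.0934) and fell by the consensus exon value (adjusted p = 0.0404), and all treated libraries were below all vehicle libraries. ANKRD1 was at 2.42, 3.54 and 1.78 FPKM at 0 µM and 0, 0 and 0.82 FPKM at 6 µM, and fell by the consensus exon value alone (adjusted p = 0.0414 by the consensus exon value and 0.0545 with the block). With the consensus exon value 7 targets fell, the others being AMOTL2, AJUBA, AXL and CRIM1, and 6 with the block.

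The window before the start of CCN2 (chr6:131951373-131951622, minus strand, RefSeq, GRCh38.p14) holds 3 matches to the TEAD motif GGAATG, in capitals, and is shown for that reason.
CCN2: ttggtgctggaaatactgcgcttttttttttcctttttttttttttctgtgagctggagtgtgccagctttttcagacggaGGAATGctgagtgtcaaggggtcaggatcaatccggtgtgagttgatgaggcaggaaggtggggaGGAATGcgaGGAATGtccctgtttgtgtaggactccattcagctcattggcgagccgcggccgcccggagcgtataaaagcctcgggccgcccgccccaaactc
In the list 17 of 23 genes had a window and 5 (29.4%) held a match on either strand, CCN2, ANKRD1, PTPN14, NUAK2 and TGFB2, against 11.9% of all windows. CCN1 is not in the table.

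Targets of SRF and actin genes had 15 of 20 tested members lower and a median of -0.20, which was -0.37 by the consensus exon value and above 0 with TPM. ACTN4, an actin crosslinker, was at 237, 209 and 242 FPKM at 0 µM and 115, 156 and 146 FPKM at 6 µM, without overlap, and fell by the consensus exon value (adjusted p = 0.0443, and 0.0627 with the block). ACTB, beta-actin, was at 1927, 1595 and 1914 FPKM at 0 µM and 1483, 1391 and 1821 FPKM at 6 µM (adjusted p = 0.506). Of the matrix, integrin and semaphorin genes 32 of 36 were tested, 22 lower and 10 higher, with a median of -0.17 that was -0.38 by the consensus exon value and above 0 with TPM. SEMA7A (chr15:74409289-74433958), a membrane-anchored semaphorin that binds integrins, fell from 6.21, 6.76 and 7.38 to 1.76, 2.4 and 2.56 FPKM, a difference of -1.27 ± 0.20 (adjusted p = 0.0497). ITGA2, the alpha chain of a collagen receptor, was at 6.51, 4.56 and 4.8 FPKM at 0 µM and 1.39, 1.57 and 2.85 FPKM at 6 µM and fell by the consensus exon value (adjusted p = 0.0287). The treated libraries were below the vehicle libraries in both genes. NRP1, a co-receptor for semaphorins, was at 22.1, 14 and 9.58 FPKM at 0 µM and 5.84, 8.39 and 6.2 FPKM at 6 µM and fell likewise (adjusted p = 0.0259).

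Immediate early genes had a median of 0.86 over 15 tested members, 12 of them higher, and of 0.53 by the consensus exon value. None passed with the summed value, and by the consensus exon value 1 rose, 4 with the block. The AP-1 motif TGANTCA stood in 0 of 14 promoter windows of the list, against 6.6% of all windows. MAFF, a small MAF factor, was at 15.6, 13.7 and 16.8 FPKM at 0 µM and 34.9, 30.4 and 34.9 FPKM at 6 µM (adjusted p = 0.0547) and rose by the consensus exon value (adjusted p = 0.0287). ATF3, a stress-induced factor, was at 4.54, 3.03 and 3.81 FPKM at 0 µM and 13.4, 8.01 and 5.89 FPKM at 6 µM (adjusted p = 0.115). FOS was at 4.2, 2.66 and 3.52 FPKM at 0 µM and 12.2, 9.13 and 3.4 FPKM at 6 µM, highest in replicate 1 and within the vehicle range in replicate 3. With replicate 3 set against its numbered control the list median was 0.30, against 1.11 and 1.10 for replicates 1 and 2. Of the MAPK feedback genes EPHA2, a receptor kinase, was at 36.1, 24.8 and 19.7 FPKM at 0 µM and 11.4, 11.8 and 11.9 FPKM at 6 µM and fell by the consensus exon value (adjusted p = 0.0344). DUSP6, a phosphatase of ERK, was at 44, 44 and 32.1 FPKM at 0 µM and 27.4, 30.4 and 27.7 FPKM at 6 µM and did not pass (adjusted p = 0.195). The median of that list was 0.00, with 7 higher and 8 lower of 15 tested, and it was above 0 without replicate 2 or 3 at 0 µM, without replicate 3 at 6 µM, with a filter at a mean of 5 FPKM, or with TPM or median-of-ratios scaling.

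Genes of the division cycle were lower from G1 to cytokinesis. In bulk RNA fewer cells in a phase and less of a transcript per cell cannot be told apart. Of all genes 0.182% fell with the summed value, 2.48% by the consensus exon value and 3.03% by that value with the block. At an unadjusted p below 0.05, 9.47% of all genes were lower. Among 17 tested G1 cyclins, kinases and inhibitors 14 were lower, with a median of -0.63, and 6 fell by the consensus exon value, also with the block. CCND1, the cyclin that starts G1, was at 64.9, 82.3 and 86.8 FPKM at 0 µM and 33, 43.5 and 51.2 FPKM at 6 µM (adjusted p = 0.0872, and 0.0461 by the consensus exon value). CCNE2, a cyclin of S phase entry, was at 36.3, 13.6 and 36 FPKM at 0 µM and 3.8, 3.78 and 13.8 FPKM at 6 µM and overlapped in the summed value (adjusted p = 0.114), and fell by the consensus exon value (adjusted p = 0.0269). SKP2, which marks the inhibitor p27 for breakdown, was at 27.3, 16.9 and 14.6 FPKM at 0 µM and 5.94, 5.54 and 9.7 FPKM at 6 µM (adjusted p = 0.0428 by the consensus exon value). CDC25A, a phosphatase that activates CDK2, was at 12.1, 8.55 and 9.7 FPKM at 0 µM and 3.07, 4.75 and 6.5 FPKM at 6 µM and fell with it as well (adjusted p = 0.039). In CCND1, SKP2 and CDC25A the groups did not overlap. CDKN1A, the inhibitor p21, was at 99, 101 and 100.1 FPKM at 0 µM and 78.8, 77.8 and 110.4 FPKM at 6 µM and did not pass (adjusted p = 0.58).

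Of the 16 tested E2F, DREAM and FOXM1 genes, which control the transcription of the cycle, 13 were lower, with a median of -0.36. None passed with either value, with 7 lower at an unadjusted p below 0.05. By the consensus exon value with the block, 3 passed, all lower. E2F1, an activator of S phase genes, was at 18.6, 21.1 and 19 FPKM at 0 µM and 10.5, 12.7 and 12.1 FPKM at 6 µM (adjusted p = 0.0629, and 0.171 by the consensus exon value). FOXM1, which drives genes of G2 and mitosis, was at 58.4, 38.4 and 47.7 FPKM at 0 µM and 30.1, 23.2 and 34.8 FPKM at 6 µM (adjusted p = 0.147). In both genes the groups did not overlap. E2F2 was at 2.52, 3.24 and 3.62 FPKM at 0 µM and 0.824, 0.743 and 0 FPKM at 6 µM (adjusted p = 0.0659).

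All 12 genes of the replicative helicase were lower with the summed value, by a median of -1.10, and by the consensus exon value 11 were lower and 1 higher. In all 12 the summed values of the treated libraries lay below those of the vehicle libraries, as in 13.8% of all genes. MCM5 (chr22:35400140-35455031), a subunit of the helicase ring, fell from 41.7, 42.4 and 44.3 to 14.4, 15.3 and 24 FPKM, a difference of -1.25 ± 0.20 (adjusted p = 0.0497). The vehicle libraries were close together, and replicate 3 was the highest at 6 µM. MCM2 was at 48, 23.9 and 24.3 FPKM at 0 µM and 9.21, 10 and 13.6 FPKM at 6 µM, with its highest vehicle level in replicate 1 (adjusted p = 0.039 by the consensus exon value and 0.0578 with the block). MCM10, which helps to start the helicase, was at 10.6, 13.2 and 11.8 FPKM at 0 µM and 3.07, 3.68 and 6.34 FPKM at 6 µM (adjusted p = 0.0354 by the consensus exon value). MCM7, another subunit of the ring, was at 135, 106 and 139 FPKM at 0 µM and 79.1, 58.6 and 76.9 FPKM at 6 µM (adjusted p = 0.0298 likewise). These and MCM4, MCM6, GINS2 and GINS4 make up the 8 that fell by the consensus exon value, and 10 fell with the block. MCM5 was the only one to pass with the summed value.

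Of 34 genes of origin licensing and the replication fork, all tested, 33 were lower, with a median of -0.71. None passed with the summed value, 24 were lower and none higher at an unadjusted p below 0.05, and 15 fell by the consensus exon value, 18 with the block. CDC6, which loads the helicase, was at 35, 33.5 and 22.4 FPKM at 0 µM and 9.33, 12.5 and 13.1 FPKM at 6 µM and fell by the consensus exon value (adjusted p = 0.0287). CLSPN, an adaptor of the replication checkpoint, was at 9.28, 6.46 and 13.7 FPKM at 0 µM and 3.1, 2.28 and 3.59 FPKM at 6 µM and fell likewise (adjusted p = 0.0354). ORC1, the large subunit of the origin complex, was at 12.3, 6.48 and 5.33 FPKM at 0 µM and 1.79, 2.66 and 3.58 FPKM at 6 µM (adjusted p = 0.0488 by the consensus exon value and 0.0717 with the block). PCNA, the sliding clamp, was at 275, 250.4 and 288 FPKM at 0 µM and 182, 146 and 211 FPKM at 6 µM and did not pass with either value (adjusted p = 0.114 and 0.0683). The 10 enzymes of nucleotide supply were all lower, with a median of -0.87. TK1, the thymidine kinase of S phase, was at 80.9, 58.5 and 63.4 FPKM at 0 µM and 24, 23.4 and 43.4 FPKM at 6 µM. RRM1, the large subunit of ribonucleotide reductase, was at 63.5, 65.1 and 70.8 FPKM at 0 µM and 23.7, 25.5 and 37 FPKM at 6 µM. Both fell by the consensus exon value (adjusted p = 0.038 and 0.0329), as did RRM2 and TYMS, and 4 enzymes fell with the block. In TK1 and RRM1 replicate 3 was the highest treated library.

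Genes of homologous recombination and the Fanconi pathway were lower in 22 of 25, with a median of -0.57, and 7 fell by the consensus exon value, 11 with the block. BRCA1, which directs repair by recombination, was at 18.6, 10.6 and 12 FPKM at 0 µM and 4.65, 3.9 and 8.62 FPKM at 6 µM (adjusted p = 0.0287 by the consensus exon value). In this gene replicate 3 was the highest treated library, and the groups did not overlap. FANCG, of the Fanconi core complex, was at 11.3, 12.2 and 14.6 FPKM at 0 µM and 5.76, 6.09 and 7.99 FPKM at 6 µM (adjusted p = 0.0287 by the consensus exon value).

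The E2F motif TTTNGCGC, on either strand, was found in 2 of 9 helicase windows (22.2%), those of MCM6 and MCM7. It stood in 7 of 31 licensing and fork windows (22.6%) and in 0 of 8 windows of nucleotide supply. Of all windows 1.54% held it, and of the windows of tested genes 2.57%. The window of MCM7 (chr7:100101398-100101647, minus strand, RefSeq, GRCh38.p14) is shown with its match in capitals, with 1 base between it and the start.
MCM7: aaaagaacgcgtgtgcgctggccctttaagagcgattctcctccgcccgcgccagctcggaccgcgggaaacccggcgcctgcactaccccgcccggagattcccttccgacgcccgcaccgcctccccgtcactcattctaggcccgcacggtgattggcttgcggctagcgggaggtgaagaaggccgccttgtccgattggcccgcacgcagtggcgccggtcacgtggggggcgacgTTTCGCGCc

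Mitotic genes were also lower. Of 23 kinases, cyclins and partners of mitotic entry 22 were lower, with a median of -0.84, 15 at an unadjusted p below 0.05. AURKB (chr17:8204731-8210575), the kinase of the chromosomal passenger complex, fell from 74.7, 78.9 and 60.4 to 30.8, 28.6 and 40.4 FPKM, a difference of -1.09 ± 0.17 (adjusted p = 0.048), and was the only one to pass with the summed value. CCNA2, cyclin A, was at 36.6, 42.5 and 40.8 FPKM at 0 µM and 10.2, 10.9 and 17.1 FPKM at 6 µM. CCNB1, cyclin B, was at 178, 70.1 and 111 FPKM at 0 µM and 38.1, 33.3 and 48.9 FPKM at 6 µM. CDC20, which activates the anaphase-promoting complex, was at 118, 70.5 and 72.4 FPKM at 0 µM and 30.5, 25 and 40.1 FPKM at 6 µM. Each of the 3 fell by the consensus exon value (adjusted p = 0.0298, 0.0364 and 0.0317), and in CCNB1 and CDC20 the vehicle library of replicate 1 was the highest. With that value 9 fell, and 10 with the block.

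The list of kinesins, spindle and cytokinesis genes held the most calls of the 48 lists. All 28 were tested and 27 were lower, with a median of -1.02 and, by the consensus exon value, of -1.12. With the summed value 4 fell, KIF20A, NUSAP1, FAM83D and DEPDC1B, and by the consensus exon value 26 of 28 fell (2.48% of all genes fell so) and 27 with the block. KIF20A (chr5:138179112-138187723), a kinesin of cytokinesis, fell from 39.6, 34.3 and 34.5 to 15.2, 20.8 and 18.1 FPKM, a difference of -0.97 ± 0.16 (adjusted p = 0.0497). NUSAP1 (chr15:41332881-41381046), which binds spindle microtubules, fell from 72.6, 73 and 82.3 to 32.4, 28.5 and 41.6 FPKM (-1.14 ± 0.18, adjusted p = 0.048). FAM83D (chr20:38926417-38953106), which brings casein kinase to the spindle, fell from 44.9, 39.3 and 40.3 to 19.7, 17.1 and 23.4 FPKM (-1.02 ± 0.16, adjusted p = 0.048), with all 3 treated libraries below 24 FPKM and all 3 vehicle libraries above 39. DEPDC1B (chr5:60596912-60700166), which acts on RhoA during entry into mitosis, fell from 26.3, 24.4 and 25.2 to 10.9, 5.98 and 7.42 FPKM (-1.57 ± 0.23, adjusted p = 0.048), with a difference of -0.88 by the consensus exon value. ECT2, the exchange factor of RhoA that also acts on CDC42, was at 23.6, 13.9 and 14.2 FPKM at 0 µM and 4.23, 4.1 and 7.81 FPKM at 6 µM and fell by the consensus exon value (adjusted p = 0.0364). HMMR, a spindle assembly factor, was at 15.8, 11.5 and 36 FPKM at 0 µM and 5.43, 4.24 and 7.52 FPKM at 6 µM and fell likewise (adjusted p = 0.0354).

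Kinetochore and checkpoint genes were all lower with the summed value, 30 of 30 tested, with a median of -0.99. By the consensus exon value 29 were lower and 1 higher. None passed with the summed value, 23 had an unadjusted p below 0.05 downwards, and 16 fell by the consensus exon value. With the block 16 fell as well, though not all the same genes. NUF2, a subunit of the complex that binds microtubules, was at 32, 26.2 and 31.3 FPKM at 0 µM and 12.3, 10.4 and 16.8 FPKM at 6 µM (adjusted p = 0.055 and, by the consensus exon value, 0.0287). CENPE, a kinetochore motor, was at 16, 14.6 and 30.6 FPKM at 0 µM and 4.84, 3.19 and 11 FPKM at 6 µM, with its highest level in replicate 3 at each dose (adjusted p = 0.175 and 0.0301 by the same values). CENPU, a centromere protein, was at 36.5, 15.7 and 20.5 FPKM at 0 µM and 5.21, 9.55 and 9.17 FPKM at 6 µM (adjusted p = 0.038 by the consensus exon value and 0.0569 with the block). The 20 genes of chromosome structure were also all lower, with a median of -0.97, and 3 fell by the summed value and 15 by the consensus exon value. MKI67 (chr10:128096659-128126423), which coats mitotic chromosomes and marks proliferating cells, fell from 30.6, 22.3 and 20.6 to 9.6, 10.6 and 10.8 FPKM, a difference of -1.15 ± 0.17 (adjusted p = 0.048). CDCA2 (chr8:25458931-25507917), which brings a phosphatase to anaphase chromosomes, fell from 15.6, 11 and 11.4 to 4.37, 4.13 and 5.45 FPKM (-1.27 ± 0.19, adjusted p = 0.048). The cohesin subunit SMC3 fell from 31.8, 40.4 and 43.1 to 15.8, 13.7 and 18.1 FPKM (adjusted p = 0.048, and 0.0552 with the block) but did not pass by the consensus exon value (adjusted p = 0.0684, and 0.0464 with the block). SMC4, a core subunit of condensin, was at 41.4, 45.6 and 25.3 FPKM at 0 µM and 21.1, 12.4 and 13.1 FPKM at 6 µM and fell by the consensus exon value (adjusted p = 0.0349). TOP2A, the topoisomerase that untangles chromosomes, was at 126, 87 and 80.5 FPKM at 0 µM and 39.2, 43.6 and 37.7 FPKM at 6 µM (adjusted p = 0.0262 by the consensus exon value).

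Set against the numbered control, replicate 3 gave the list median nearest to 0 in all 8 division cycle lists from helicase to chromosome structure. For the helicase it was -0.68, against -1.18 and -1.19 in replicates 1 and 2. For the spindle it was -0.71, against -1.14 and -1.28.

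CCAAT boxes, on either strand, stood in 20 of 25 windows (80%) of the spindle list and in 15 of 18 (83.3%) of the mitotic entry list, against 33% of all windows. The CHR motif TTTGAA stood in 14 of 25 (56%), 9 of 18 (50%) and 5 of 25 (20%) windows of the spindle, mitotic entry and kinetochore lists, against 13.6%. The window of KIF20A (chr5:138178862-138179111, plus strand) is shown for its pair of CCAAT boxes, which stand there as ATTGG on the gene's strand, and that of KIF23 (chr15:69414099-69414348, plus strand), a kinesin of the central spindle, for its CHR match (RefSeq, GRCh38.p14).
KIF20A: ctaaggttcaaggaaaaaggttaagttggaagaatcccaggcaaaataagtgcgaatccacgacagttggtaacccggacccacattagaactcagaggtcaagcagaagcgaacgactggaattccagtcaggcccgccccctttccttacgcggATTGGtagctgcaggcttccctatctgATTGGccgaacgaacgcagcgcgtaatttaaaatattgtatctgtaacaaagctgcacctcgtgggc
KIF23: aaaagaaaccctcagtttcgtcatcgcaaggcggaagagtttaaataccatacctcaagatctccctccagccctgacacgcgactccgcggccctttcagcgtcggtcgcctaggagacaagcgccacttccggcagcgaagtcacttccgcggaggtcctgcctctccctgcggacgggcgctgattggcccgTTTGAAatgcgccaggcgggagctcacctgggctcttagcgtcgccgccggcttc
KIF23 was at 36.5, 61.3 and 32.1 FPKM at 0 µM and 19.8, 14.7 and 19.8 FPKM at 6 µM (adjusted p = 0.141) and fell by the consensus exon value (adjusted p = 0.0287).

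**Figure D3:**
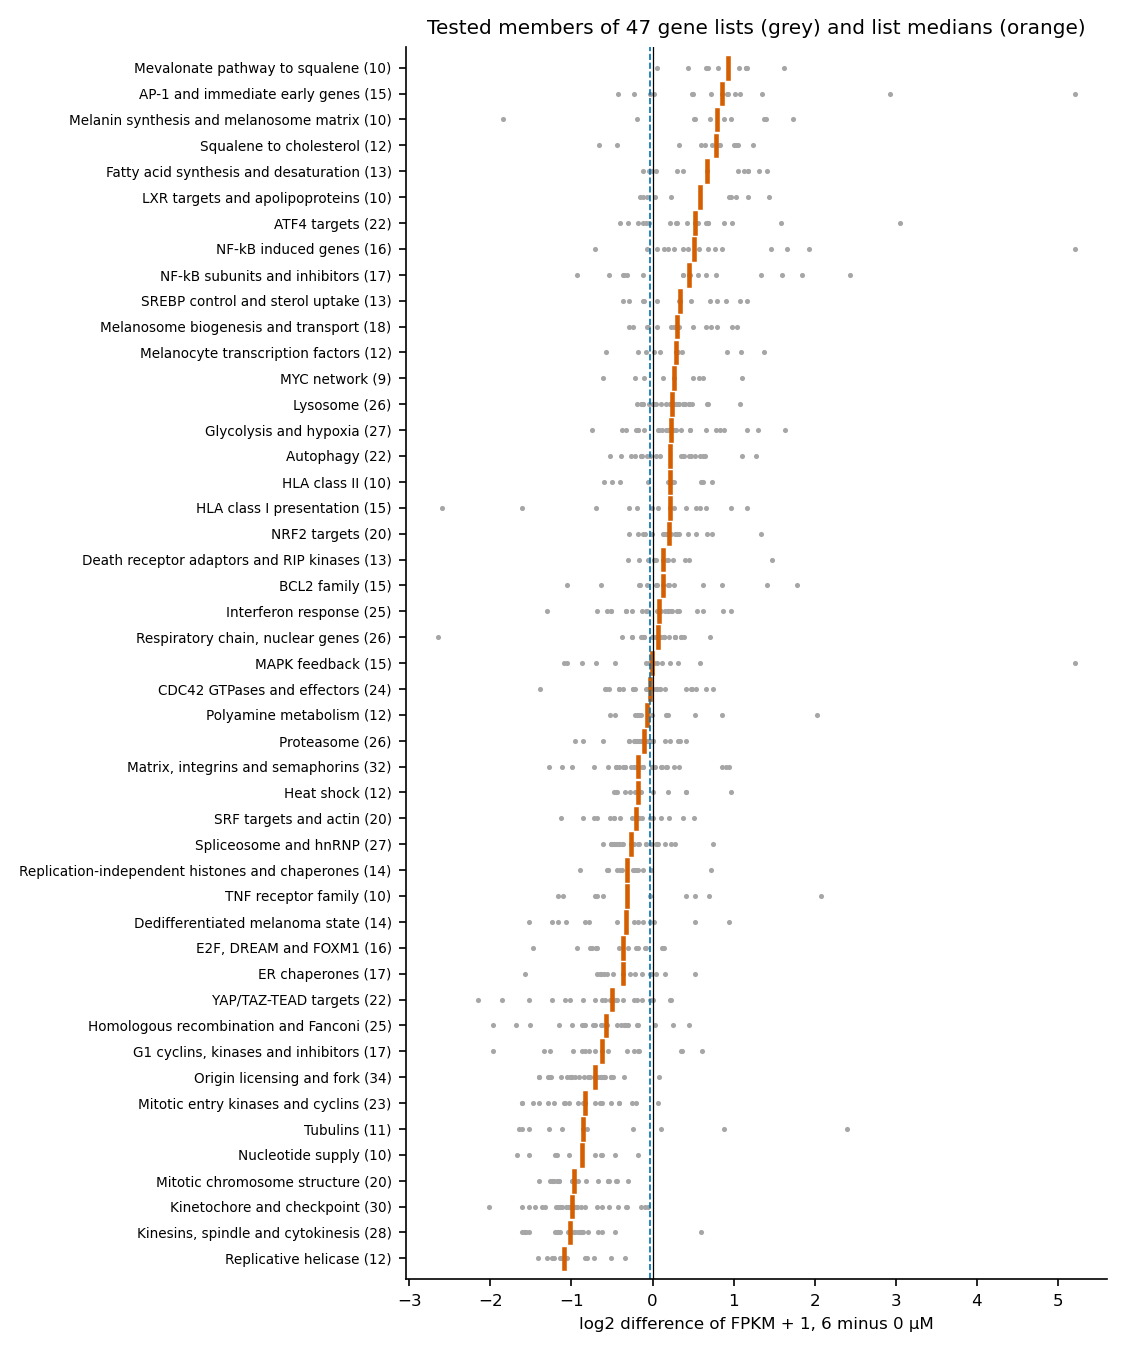
Each row is a gene list with the number of tested members in parentheses, grey points are the log2 differences between 6 and 0 µM of its members, the orange bar is the list median, and the dashed blue line is the median of all tested genes, -0.03. Helicase, spindle, kinetochore and chromosome structure lists are at the bottom with medians between -1.10 and -0.97, and the mevalonate list is at the top with 0.93.

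Tubulin genes had 8 of 11 tested members lower and a median of -0.86. TUBA1B (chr12:49127782-49131395), an alpha-tubulin of dividing cells, was at 1613, 1188 and 1470 FPKM at 0 µM and 638, 512 and 852 FPKM at 6 µM and fell by the consensus exon value (adjusted p = 0.0354). TUBB4A was at 1.42, 2.6 and 2.77 FPKM at 0 µM and 5.28, 4.7 and 4.75 FPKM at 6 µM and rose with that value (adjusted p = 0.039). Tubulin genes are close copies whose reads can be divided between them, and their values are uncertain. TUBB6 differed by -1.53 with the summed value and by -0.07 by the consensus exon value, and TUBB by -0.86 and 0.30.

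Stress pathways went in different directions. Of 22 targets of ATF4, the factor of the integrated stress response, 16 were higher with a median of 0.52. None passed with the summed value, 1 by the consensus exon value and 4 with the block added. The CARE motif TGATGNAAT stood in 0 of 17 promoter windows of these targets, against 0.916% of all windows. NUPR1, a small stress-induced chromatin protein, was at 2.67, 0 and 1.56 FPKM at 0 µM and 26.5, 16.5 and 10.2 FPKM at 6 µM and rose by the consensus exon value (adjusted p = 0.0439). TRIB3, a pseudokinase, was at 31.1, 17.8 and 19.9 FPKM at 0 µM and 56.1, 33.6 and 38.5 FPKM at 6 µM (adjusted p = 0.0586 by the consensus exon value and 0.022 with the block). ATF4 itself was at 213, 147 and 156 FPKM at 0 µM and 435, 194 and 178 FPKM at 6 µM, where replicate 1 was the highest (adjusted p = 0.444). In contrast 14 of 17 chaperones of the endoplasmic reticulum were lower, with a median of -0.37. HSPA5, the chaperone BiP, was at 409, 526 and 562 FPKM at 0 µM and 290.2, 318 and 313 FPKM at 6 µM (adjusted p = 0.0764), without overlap. HYOU1, another chaperone, was at 112, 111 and 123 FPKM at 0 µM and 60.6, 105 and 85.5 FPKM at 6 µM and fell by the consensus exon value (adjusted p = 0.0364).

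GDF15, a secreted stress protein, was at 15.8, 37.8 and 23.4 FPKM at 0 µM and 89, 90.7 and 52.3 FPKM at 6 µM and rose by the consensus exon value (adjusted p = 0.0464). Among NRF2 targets 15 of 20 were higher with a median of 0.20. OSGIN1, an oxidative stress gene, was at 11, 6.29 and 5.13 FPKM at 0 µM and 23, 20.9 and 15.4 FPKM at 6 µM and rose by the consensus exon value (adjusted p = 0.0471). In the MYC network MXI1, a repressor that competes with MYC for its partner MAX, was at 13.8, 17.6 and 12.2 FPKM at 0 µM and 38.4, 30.6 and 27.9 FPKM at 6 µM (adjusted p = 0.0519 and, by the consensus exon value, 0.0287). MAX was at 37.6, 34 and 38.6 FPKM at 0 µM and 55.8, 53.9 and 47.9 FPKM at 6 µM and rose by the consensus exon value (adjusted p = 0.039). MYC was at 11.1, 24.2 and 20.4 FPKM at 0 µM and 32.7, 23.1 and 28.2 FPKM at 6 µM and overlapped.

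Other genes named by size belonged to no list. The sphingosine kinase gene SPHK2 (chr19:48619506-48630405) had no FPKM in any vehicle library (listed at 0) and 5.48, 7.82 and 9.05 FPKM at 6 µM (adjusted p = 0.00199). Over the shared exonic bases the vehicle libraries were at 0, 0.161 and 0 and the treated at 4.80, 5.94 and 6.66 FPKM. Of the next 3 genes all vehicle libraries were listed at 0. IGF1 (chr12:102395874-102481839), the growth factor, was at 3.55, 3.79 and 3.86 FPKM at 6 µM (adjusted p = 0.0254). The lncRNA LINC01705 (chr1:222041704-222059393) was at 3.26, 4.48 and 4.5 FPKM (adjusted p = 0.0122). PLA2G3 (chr22:31134807-31140508), a secreted phospholipase, was at 2.37, 2.32 and 2.59 FPKM (adjusted p = 0.0497). All 3 stayed below 5 FPKM in every treated library. The pseudogene LOC727751 (chr15:85203449-85234808) was listed at 0 in all libraries at 0 and 4 µM and at 1033, 88.6 and 57.2 FPKM at 6 µM, most of it in replicate 1 (adjusted p = 0.0254). It has no strand in the annotation used, so that only single-exon transcripts could be named for it. It overlaps LOC101929479, LOC105370948 and RN7SL428P, whose reads cannot be told apart from its own. IL4I1 (chr19:49889654-49929504), an amino acid oxidase gene that overlaps NUP62 and ATF5, was at 0, 0 and 0.742 FPKM at 0 µM and 4.76, 4.68 and 2.9 FPKM at 6 µM (adjusted p = 0.0497), so that reads of the overlapping genes cannot be told apart from its own. ZNF557 (chr19:7069703-7087968), a zinc finger gene, rose from 2.69, 3.27 and 3.36 to 8.51, 8.9 and 9.91 FPKM, a difference of 1.30 ± 0.14 (adjusted p = 0.0155).

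Of those that fell, ATAD2 (chr8:123319850-123416350), a bromodomain ATPase of replicating chromatin, went from 34.4, 30.3 and 16.8 to 5.61, 5.52 and 7.68 FPKM, a difference of -1.91 ± 0.28 (adjusted p = 0.048). SERPIND1 (chr22:20774113-20787720), a thrombin inhibitor that lies within PI4KA, fell from 13.7, 22.3 and 30.1 to 5.12, 6.2 and 5.67 FPKM (-1.73 ± 0.28, adjusted p = 0.0497). ZC3H14 (chr14:88563037-88627596), a poly(A)-binding protein, fell from 25.1, 25.9 and 25.3 to 12, 10.7 and 12.1 FPKM (-1.07 ± 0.12, adjusted p = 0.0166), and both groups were narrow. The lncRNA LOC124904690 (chr19:32692965-32700147), which overlaps NUDT19, was at 15.2, 22.4 and 14.6 FPKM at 0 µM, whereas all 3 libraries at 6 µM listed it at 0 (adjusted p = 0.0497). LOC124907946 (chr2:190753817-190760501) was at 6.53, 5.97 and 2.62 FPKM and likewise listed at 0 at 6 µM (adjusted p = 0.0397). Neither lncRNA has a strand in the annotation used, so that only single-exon transcripts could be named for them. Reads of NUDT19 cannot be told apart from those of LOC124904690. In all 13 of the 56 genes rested on a dose at which every library listed them at 0. Among all genes tested 34 were at 0 in the 3 vehicle libraries and above 0 in the 3 treated ones, and 13 the other way round. In the annotation SPHK2, TNFRSF14, TNFAIP3, KIF20A and ZC3H14 overlap DBP, TNFRSF14-AS1, WAKMAR2, CDC23 and EML5 in this order, and the labels do not say whether the libraries kept the strand.

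**Figure D4:**
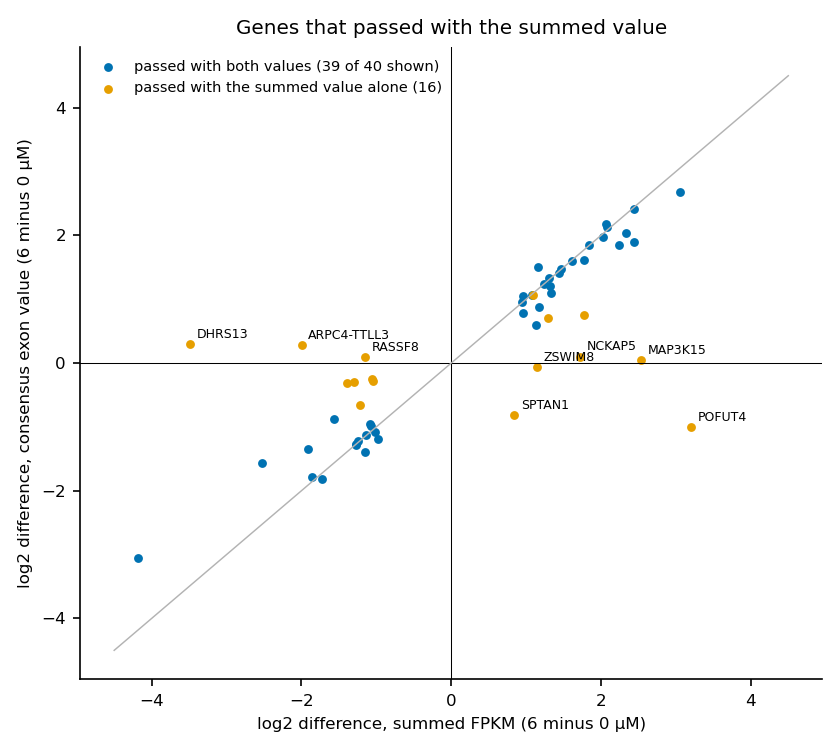
Each point is a gene that passed with the summed value, with the log2 difference of the summed value on the x axis and that of the consensus exon value on the y axis, on the same scale (grey line, equality), where blue points passed with both values and orange points with the summed value alone. Of 40 blue points 39 are shown, LOC727751 lying beyond the axes, and the labelled orange points lie near 0 or on the other side of it by the consensus exon value.

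The 6 and 4 µM libraries were set against each other to see where the higher dose differed from the lower. This comparison shares the 6 µM libraries with the one above. Only DHRS13, SPTAN1 and TMEM198B passed (3 of 12609 genes, 0.0238%), and 596 (4.73%) had an unadjusted p below 0.05, 230 higher (1.82%) and 366 lower (2.9%). DHRS13, a dehydrogenase gene, had 11.3, 14 and 11.7 FPKM at 4 µM and 0 in every library at 6 µM, and against 0 µM its consensus exon value had the opposite sign (0.30). SPTAN1, alpha-spectrin, was at 21.6, 22.1 and 23.1 FPKM at 4 µM and 65.1, 55.5 and 51 FPKM at 6 µM, but by the consensus exon value it differed by -0.32 between these doses and fell against 0 µM (-0.81, adjusted p = 0.0303). The pseudogene TMEM198B had no FPKM in any library at 4 µM (listed at 0) and 5.29, 5.32 and 4.21 FPKM at 6 µM (adjusted p = 0.0119). None of the 30 genes named by size of change passed between the doses. NFKBIA was at 89, 51.4 and 30.5 FPKM at 4 µM, a difference between 6 and 4 µM of 0.78, and its highest library lay within the range at 6 µM. TNFAIP3 was at 8.91, 6.58 and 6.46 FPKM at 4 µM (0.89), SAT1 at 205, 158 and 144 FPKM (0.68) and CCN1 at 13.8, 17.4 and 12.3 FPKM (-1.01). In these last 3 genes the libraries at 4 and at 6 µM did not overlap.

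By list the medians between 6 and 4 µM were -0.53 for the helicase, with 12 of 12 members lower at 6 µM, -0.39 for the spindle, -0.34 for the kinetochore and -0.26 for YAP and TAZ targets. They were 0.03 for the mevalonate pathway, 0.17 from squalene to cholesterol, -0.07 for melanin synthesis and 0.42 for immediate early genes. The median of all genes was -0.03.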

How the data were processed

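Poly-A RNA of 9 WM3248 libraries was sequenced, 3 each at 0, 4 and 6 µM ARN22089. Per the submitters' processing notes the authors used Trimmomatic, TopHat2 2.1, Bowtie2 2.2.7, SAMtools 1.9 and Cufflinks 2.2.1; their order and settings are not given in the sources used here. The deposited values are FPKM per transcript, assembled in each library separately; they are no read counts, so that no count model was used. The notes name GRCh37, but 96.0% of 193769 spliced transcripts share an intron with a gene placed on GRCh38, against 17.4% for GRCh37, and GRCh38 was used. Spliced transcripts were named by same-strand introns, with GENCODE v44 intron lengths set on RefSeq GRCh38.p14 gene positions. Single-exon transcripts were named by a gene that covers 50% of the bases or more, with strands compared only where both were known. Genes with a named spliced transcript in any library were left out of this step, and a single gene had to remain. A single-exon piece of a spliced gene could thus be named for a gene that overlaps it. These rules named 15742 genes.

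FPKM were summed per gene (Python 3.11.15, pandas 2.3.3). Genes whose mean reached 1 FPKM were fitted with limma 3.58.1 (R 4.3.3) as log2(FPKM + 1), which understates the change of low genes, with 3 dose groups and 6 residual degrees of freedom, and p-values were adjusted by Benjamini and Hochberg over all genes, with a threshold of 0.05. The consensus exon value is the mean FPKM over those exonic bases that 50% or more of the libraries with the gene share. All transcripts of a library over these bases count towards it, whatever their name or strand. The sample descriptions give same-numbered replicates a mark shared across doses, so that the numbers pair the libraries, and the replicate block was fitted as an alternative with 4 residual degrees of freedom. Deviations of same-numbered libraries at 0 and 6 µM correlated with r between 0.021 and 0.027 across genes, which are not independent, those at 4 and 6 µM with 0.097, 0.099 and 0.143, and all same-numbered pairs with -0.002 to 0.143, against -0.1 to 0.014 for different numbers.

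The named genes were, first, the 15 higher and 15 lower with the largest change among those past the threshold with both values. In addition they were the 3 most changed members of each list past the threshold with the consensus exon value and at an unadjusted p below 0.05 with the summed value, and a fixed set of regulators. Some of these genes are not reported here. The comparison, lists and rule were chosen with earlier results of these data known. Promoter windows are the 250 bases before each start in a RefSeq table (GRCh38.p14), searched on both strands, with each motif counted whether or not it overlaps another. Of the windows of tested genes 35.8% held a CCAAT box, 8.53% the CHR, 9.49% the TEAD and 3.79% the AP-1 motif. The melanocyte E-box stood in 1.36% of them, the sterol element in 0.847% and the CARE motif in 0.433%. Other alternatives were TPM, median-of-ratios scaling, other filters and pseudocounts, the 6 libraries alone and each library left out. The fit was also run on simulated data with known changes, drawn as independent normal values for each library, and its outcome is not reported here. The simulation did not model genes missed in assembly or deviations shared by same-numbered libraries, and so cannot speak to these.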

Additional observations from a re-analysis of the deposited data

How the results depend on the processing

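The 56 calls between 6 and 0 µM (33 higher, 23 lower) became 519 (206 higher, 313 lower) with the consensus exon value, 16 (15 higher, 1 lower) with TPM and 13 (8 higher, 5 lower) when the 6 libraries at 0 and 6 µM were fitted alone. They were 59 with a pseudocount of 0.1, 58 without the filter on low values, 79 with a filter at a mean of 5 FPKM and 71 with median-of-ratios scaling. The cause of these differences was not tested, except that the fit of 6 libraries has fewer samples. With each library left out in turn they ran from 15 to 63, with 8 to 27 higher and 3 to 37 lower. Leaving out libraries from the fit with the consensus exon value, an alternative chosen after seeing the data, gave 11 to 540 calls, 9 to 180 higher and 2 to 375 lower. Among the 115 genes named by the rule, none that passed with the summed value or under an alternative had the opposite sign there. Those chosen by size of change had to have the same sign with both values, so that the consensus exon value could not reverse them. Of the 56 calls 6 had the opposite sign by the consensus exon value, DHRS13 and SPTAN1 among them.

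With the replicate block, the paired fit, 4 genes passed with the summed value (3 higher, 1 lower) and 663 with the consensus exon value (280 higher, 383 lower). Among the 115 named genes 33 passed with the summed value. With the block 2 passed, and with the block and the consensus exon value 85. Without the block 94 passed with the consensus exon value, 11 with TPM and 5 in the fit of 6 libraries, and 4 to 24 with a library left out. Between 6 and 4 µM the 3 calls were 1 with the block, 0 with the block and the consensus exon value, 7 with a pseudocount of 0.1, 8 without the filter on low values and 2 to 12 with a library left out. For the count of 0, limma gave 3 with either value and no block, and with the summed value 596 genes had an unadjusted p below 0.05. The number of lists with a median above 0 was 23 and ran from 21 to 32 under the alternatives. With TPM 9 lists turned from below to above 0, among them those of CDC42, heat shock, MAPK feedback, matrix, polyamine, proteasome, SRF and spliceosome genes. With a library left out the medians of the CDC42, heat shock, polyamine, interferon, MAPK feedback, respiratory chain and BCL2 lists, among others, changed sign at least once. With TPM 44 of 48 list medians moved by more than the spread between replicates. With the consensus exon value 19 did so, and without replicate 1 at 0 µM 18. Depth in reads is unknown, so that a gene listed at 0 could not be given an upper limit.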

Other observations

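Several groups of genes had few or no calls at 6 µM. Of 26 proteasome genes 19 were lower, with a median log2 difference of -0.11, and of 27 tested spliceosome and hnRNP genes 20 were lower, with a median of -0.26, and none passed with either value. Both medians were above 0 with TPM. Of 26 tested nuclear genes of the respiratory chain 16 were higher, with a median of 0.07 that fell below 0 without replicate 2 at 0 µM, and none passed with either value. The 12 tested heat shock genes had 5 higher and 7 lower members and a median of -0.18, which was -0.35 with the consensus exon value and above 0 with TPM or without replicate 1 at 0 µM.

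Antigen presentation genes had no call with either value. Of 15 class I genes 9 were higher, with a median of 0.21 (0.36 with the consensus exon value), and of 10 class II genes 6, with a median of 0.22. Among 25 tested interferon response genes 14 were higher, with a median of 0.09 that was 0.05 with the consensus exon value and below 0 when any of 3 libraries was left out, namely replicates 2 and 3 of the vehicle and the first at 6 µM. IFIH1, a sensor of double-stranded RNA, was at 2.47, 2.32 and 2.17 FPKM at 0 µM and 5.85, 6.12 and 3.57 FPKM at 6 µM and rose with the consensus exon value (adjusted p = 0.0349).

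Lysosomal genes were higher in 20 of 26, with a median of 0.24, and none passed with either value. Autophagy genes were higher in 13 of 22, with a median of 0.22. WIPI1, which binds early autophagosome membranes, was at 28.2, 16.1 and 23 FPKM at 0 µM and 62.7, 57.2 and 44.9 FPKM at 6 µM and rose with the consensus exon value (adjusted p = 0.0287). Glycolysis and hypoxia genes were higher in 20 of 27, with a median of 0.23 that was 0.09 with the consensus exon value. SLC2A3, a glucose transporter, was at 11.1, 11.5 and 11.3 FPKM at 0 µM and 38.2, 75.2 and 17.8 FPKM at 6 µM and rose with the consensus exon value (adjusted p = 0.0422). Of 14 tested replication-independent histone and chaperone genes 13 were lower, with a median of -0.31 that was -0.08 without replicate 1 at 0 µM, and none passed with either value.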
